A study of Caenorhabditis elegans with 2 samples.

Results

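The C. elegans genome has 29 coding genes named dnj-, which encode proteins with a J domain, and 5 of them had a peak of the C17E4.6 fusion protein at their promoter. These 5 genes are dnj-9, dnj-13, dnj-19, dnj-28 and dnj-29. They were selected on the peak data themselves. A gene was taken when the summit of a thresholded peak, found in the list that combines both replicates, fell in its promoter window, which reached 500 bp upstream and 200 bp downstream of the annotated 5' end. Their presence in that list, and the signal of their peaks, is therefore a description and was given no test. The other 24 dnj- genes had no such summit, and 19973 coding genes on the 6 chromosomes were examined in all.

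The worms were young adults of strain RW12293, 62 hours after growth was started from first-stage larvae that had been synchronised by bleaching and starvation. All of them carried st12293, a CRISPR insertion that adds TY1, EGFP and 3xFLAG to C17E4.6 at its own locus, and the tagged protein was immunoprecipitated from sonicated chromatin with an antibody against GFP. C17E4.6 encodes the worm member of the YL1 (VPS72) family, which in yeast and mammals is known as a subunit of chromatin remodellers that load H2A.Z into nucleosomes. There were 2 biological replicates of 1 group, no untagged or mock sample was analysed here, and whole animals do not show in which tissue a site was bound.

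J-domain proteins, also called Hsp40 proteins, are partners of the HSP70 chaperones. The J domain stimulates the ATPase of HSP70, which then holds on to an unfolded client, and the rest of the protein brings the client or ties HSP70 to a place in the cell. Class A and class B members resemble bacterial DnaJ and act on clients in general, while class C members share only the J domain and have special tasks, such as import into organelles or the uncoating of vesicles. The 5 genes include one of each kind. The product of dnj-13 is a cytosolic class B protein, which in the worm is known to work with the HSP70 protein HSP-1 and with HSP-110 in dissolving protein aggregates. The product of dnj-19 is a cytosolic class A protein. The product of dnj-29 is the worm relative of Sec63, the membrane protein known from yeast and mammals to hold an HSP70 at the translocon of the endoplasmic reticulum. The reference annotation calls the products of dnj-9 and dnj-28 J domain-containing proteins.

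In the combined thresholded list, which holds 1017 peaks, the 5 peaks fell into a group of 4 strong ones and a weak one. The signal given by the authors' peak caller, whose scale is not stated, was 171 at dnj-13, 168 at dnj-28, 150 at dnj-19, 139 at dnj-9 and 58.2 at dnj-29, where the median of the list was 79.9. The first 4 ranked 61, 64, 94 and 120 of 1017 by signal, and the peak at dnj-29 ranked 914. Among the 454 peaks of the list that lay in the promoter window of a coding gene, the ranks were 36, 38, 55, 71 and 422. Each peak also has an irreproducible discovery rate (IDR), deposited as a score of up to 1000, and the lowest score that the combined thresholded list holds is 830, an IDR of 0.01. The peaks of dnj-9, dnj-13, dnj-19 and dnj-28 had the highest possible score, 1000, and that of dnj-29 had 887. All 5 peaks were 284 bp wide, which is both the median and the longest width in the list, so the width does not set them apart.

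**Figure D1:**
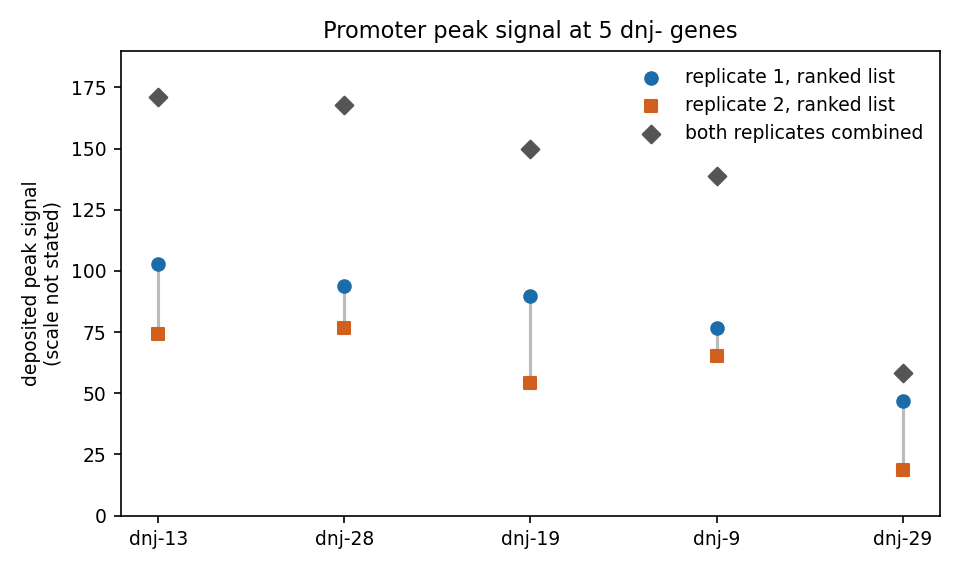
The deposited peak signal (vertical axis, scale not stated) at the promoters of the 5 genes in replicate 1 (circles), replicate 2 (squares) and the combined list (diamonds), with a grey line joining the replicates. Replicate 1 was above replicate 2 at each of the 5 genes, and dnj-29 had the lowest value in each.

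At dnj-13 (WBGene00001031) the signal was 103 in replicate 1 and 74.3 in replicate 2. The gene runs from 11545701 to 11547360 on the plus strand of chromosome II (ce11, the same assembly as WBcel235). Its peak spanned 11545372 to 11545655 with the summit at 11545514, 187 bp upstream of the 5' end and 200 bp upstream of the start codon. The replicates placed the summit 216 and 155 bp upstream, 61 bp apart, against a median of 26 bp over the 913 combined peaks that had a summit within 100 bp in both replicates' ranked lists. The nearest head-to-head coding gene, F54D5.9, which the reference annotation describes as an F-box protein, begins 873 bp away, and the summit lay 686 bp upstream of it, outside its window. A pair of noncoding RNA genes, both named F54D5.22 and annotated on opposite strands from 11545464 to 11545613, covered the summit. An intron of one transcript of dhgd-1, whose product is a mitochondrial D-2-hydroxyglutarate dehydrogenase, also spanned the site in the Ensembl annotation, with the nearest exon edge 4882 bp away. In RefSeq dhgd-1 runs only from 11538904 to 11540630 and does not reach the summit.

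The peak of dnj-9 (WBGene00001027) was the most alike in both replicates, with a signal of 76.6 in replicate 1 and 65.4 in replicate 2. The gene lies from 4852056 to 4857820 on the plus strand of chromosome II. The combined peak ran from 4851693 to 4851976, and its summit at 4851835 was 221 bp before the 5' end of the gene, while the replicates' summits lay 225 and 209 bp upstream. No annotated gene overlapped the peak, and dnj-9 was the only one of the 5 with no head-to-head coding partner within 1000 bp. The nearest coding gene upstream, T23B7.3, lies on the same strand and ends 395 bp before dnj-9.

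At dnj-19 (WBGene00001037) the replicates gave signals of 89.6 and 54.1, and both placed the summit at the same base, 5505233. The gene runs from 5503033 to 5504857 on the minus strand of chromosome V, and the combined peak from 5505091 to 5505374. The summit lay 376 bp upstream of the 5' end of dnj-19, the farthest of the 5, and only 20 bp upstream of nhr-47, a gene of the nuclear hormone receptor family that faces the other way. The 5' ends of dnj-19 and nhr-47 are 396 bp apart, so the peak lay in both promoter windows and closer to nhr-47. Counting each summit only for the coding gene with the nearest 5' end, or narrowing the window to 250 bp upstream and 100 bp downstream, left dnj-19 with no peak. The noncoding RNA gene C24G6.10 also covered the summit.

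The sequences around the summits of these 3 promoters are shown because they hold the base pairs at the peak's centre and the motifs named after them. Each is written 5' to 3' on the strand of its dnj- gene, within 75 bp of the summit and cut where an exon of a coding gene begins, and was read from the RefSeq copy of WBcel235. Capitals mark matches, on either strand, to any of the 11 motifs searched, and the coordinates are chrII:4851760-4851910, chrII:11545439-11545589 and chrV:5505158-5505252, with the summit at base 76, 76 and 20 of the sequence.
dnj-9: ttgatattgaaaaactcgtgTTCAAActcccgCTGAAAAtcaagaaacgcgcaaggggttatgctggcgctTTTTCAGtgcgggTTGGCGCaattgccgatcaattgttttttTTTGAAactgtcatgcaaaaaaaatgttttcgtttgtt
dnj-13: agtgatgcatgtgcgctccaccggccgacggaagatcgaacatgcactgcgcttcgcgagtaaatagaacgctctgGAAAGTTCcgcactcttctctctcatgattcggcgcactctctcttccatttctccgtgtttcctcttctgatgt
dnj-19: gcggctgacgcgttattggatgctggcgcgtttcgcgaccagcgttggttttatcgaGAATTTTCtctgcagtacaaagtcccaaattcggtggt

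The motifs were searched on both strands of the 151 bp centred on each summit, and a match says only that the letters are there. A pair of heat shock element units, GAANNTTC or TTCNNGAA, was matched once at dnj-13, beginning 186 bp upstream of its 5' end, and once at dnj-19, 338 bp upstream. Such a pair occurred in 14.6% of all 1017 summit windows and in 17.6% of windows of the same length centred 200 bp upstream of coding genes. An element of 3 units occurred at none of the 5 and in 2.75% of the summit windows. The E2F motif (TTGGCGC or TTCCCGC) was matched at dnj-9 alone, beginning 212 bp upstream, against 10.8% of summit windows and 2.98% of upstream windows. The CHR motif, TTTGAA, was matched at dnj-9 and dnj-28, against 25.2% of summit windows and 41% of upstream windows. The splice acceptor letters TTTTCAG were matched at dnj-9 alone (8.55% and 13.4%).

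No match was found at any of the 5 for EOR-1 (CTGCGTCT, in 7.47% of summit windows), the GC box (CCCGCCC, 1.97%), the E box (CACGTG, 4.23%), the unfolded protein response element (TGACGTGG or CCACGTCA, 0.197%), the TATA box (TATAAA, 8.85%) or the CRE (TGACGTCA, 0.688%). The window of dnj-29 held none of the 11 motifs. The core GGCGC, which the E2F letters TTGGCGC contain, was counted after the sequences had been seen. It was in the window of each of the 5 genes, with 2 copies at dnj-9 and 1 at each of the others, against 33.1% of all summit windows and 8.28% of upstream windows. The longer letters TGGCGC, also counted after the sequences had been seen, were at dnj-9, dnj-19 and dnj-29, against 14.4% and 2.86%. The GC content of the 5 windows was 39.7% at dnj-9, 43% at dnj-29, 49.0% at dnj-28, 52.3% at dnj-13 and 53.0% at dnj-19. The median was 46.4% over all summit windows and 33.8% over upstream windows, so all 5 were above the latter and only 3 above the former.

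The peak of dnj-28 (WBGene00001046) was the closest to its gene. The signal was 93.9 in replicate 1 and 76.5 in replicate 2. The gene runs from 2996488 to 3001382 on the plus strand of chromosome I. The peak spanned 2996234 to 2996517 and so reached past the annotated 5' end, and its summit at 2996376 lay 112 bp upstream of that end and 134 bp upstream of the start codon. The replicates' summits were 143 and 101 bp upstream. The head-to-head gene supr-1, named as a suppressor of rpm-1, begins 574 bp away. The summit lay 462 bp upstream of supr-1, so the 2 genes shared the peak under the main window.

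The weak peak belonged to dnj-29 (WBGene00001047), the Sec63 relative, and rested mainly on replicate 1. Its signal was 46.7 in replicate 1, with a score of 882, and 18.5 in replicate 2, with a score of 63. The replicate 2 value was below the lowest score in that replicate's thresholded list, 831, and its rank was 9582 of 45592 in the ranked list, against 550 of 43313 in replicate 1. The gene runs from 14104515 to 14113108 on the minus strand of chromosome I. The combined peak spanned 14113124 to 14113407, with the summit at 14113266, 158 bp upstream of the 5' end, and replicate 2 had its summit 139 bp upstream. The divergent neighbour ndua-2, which encodes a subunit of respiratory complex I, begins 528 bp away, with the summit 370 bp upstream of it. The conservative list of 955 peaks lacked this peak, which had a score of 469 in the ranked list behind it.

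**Figure D2:**
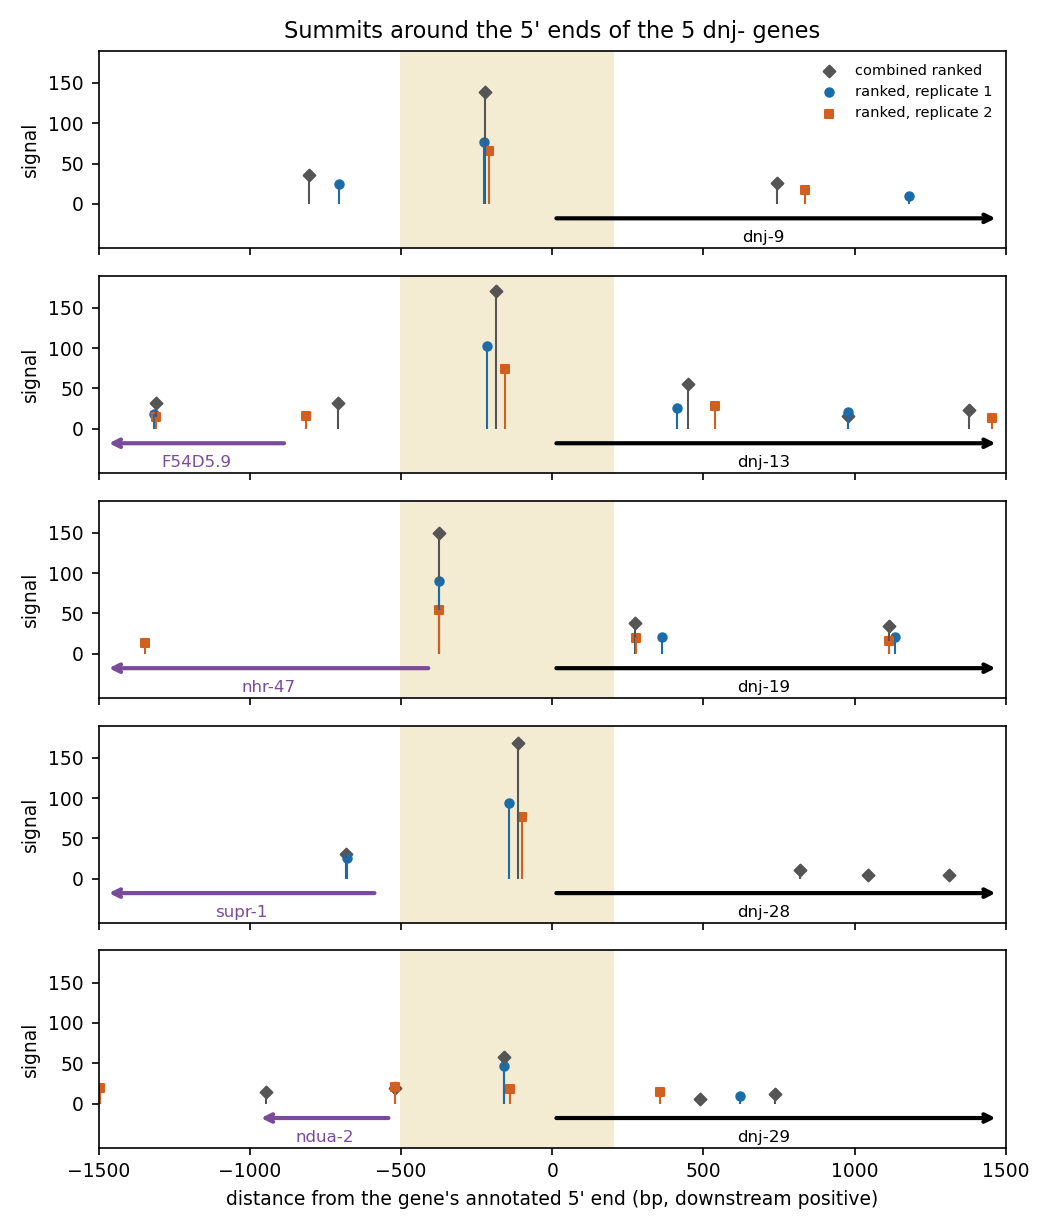
Peak summits of the combined, replicate 1 and replicate 2 ranked lists within 1500 bp of the annotated 5' end of each gene, with position in bp on the horizontal axis (downstream positive) and signal on the vertical axis; shading marks the promoter window, black arrows the dnj- gene and purple arrows head-to-head coding genes, cut at the edge of the plot. At dnj-9, dnj-13, dnj-19 and dnj-28 the summit in the window was the highest in each of the 3 lists, while at dnj-29 replicate 2 had a summit of 20.2 outside the window and 18.5 within it.

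Around dnj-9, dnj-13, dnj-19 and dnj-28 the promoter summit was higher than other summits nearby. The genes were chosen for this summit, and its height over its neighbours was not compared with that of other thresholded peaks. In the combined ranked list, which holds 65464 peaks, most of them below the threshold, the next highest summit within 1500 bp of the 5' end had a signal of 35.7 at dnj-9, 55.1 at dnj-13, 38.6 at dnj-19 and 31 at dnj-28. The promoter summit was thus 3.90, 3.10, 3.88 and 5.43 times as high. The second summit at dnj-13 lay inside the gene, 449 bp downstream of its 5' end, and had a score of 721, not far below the threshold. At dnj-29 the promoter summit was 2.96 times as high as the next in the combined list and 5.29 times in replicate 1. In replicate 2 the highest summit within 1500 bp of dnj-29 had a signal of 20.2, above the 18.5 of the promoter summit. No thresholded summit of the combined list lay inside the body of any of the 29 dnj- genes.

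The order of the 5 genes was only partly the same in the replicates. Replicate 1 ran dnj-13, dnj-28, dnj-19, dnj-9 and dnj-29 from high to low, and replicate 2 ran dnj-28, dnj-13, dnj-9, dnj-19 and dnj-29. As mean ± SD (n = 2), with the caution that the lists are not stated to share a scale, the signals were 88.9 ± 20.6 at dnj-13, 85.2 ± 12 at dnj-28, 71.8 ± 25.1 at dnj-19, 71.0 ± 7.93 at dnj-9 and 32.6 ± 19.9 at dnj-29. Each neighbouring pair among the first 4 differed by less than the larger of its SDs, and the ranges of neighbours overlapped. Both values of dnj-29 were below both values of each other gene. The log2 ratio of replicate 2 to replicate 1 was -0.23 at dnj-9, -0.29 at dnj-28, -0.48 at dnj-13, -0.73 at dnj-19 and -1.33 at dnj-29. Over the 913 matched peaks the median was -0.33 (SD 0.56 across peaks), and 30 of them (3.29%) had a ratio below that of dnj-29, while 203 (22.2%) were below dnj-19.

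**Figure D3:**
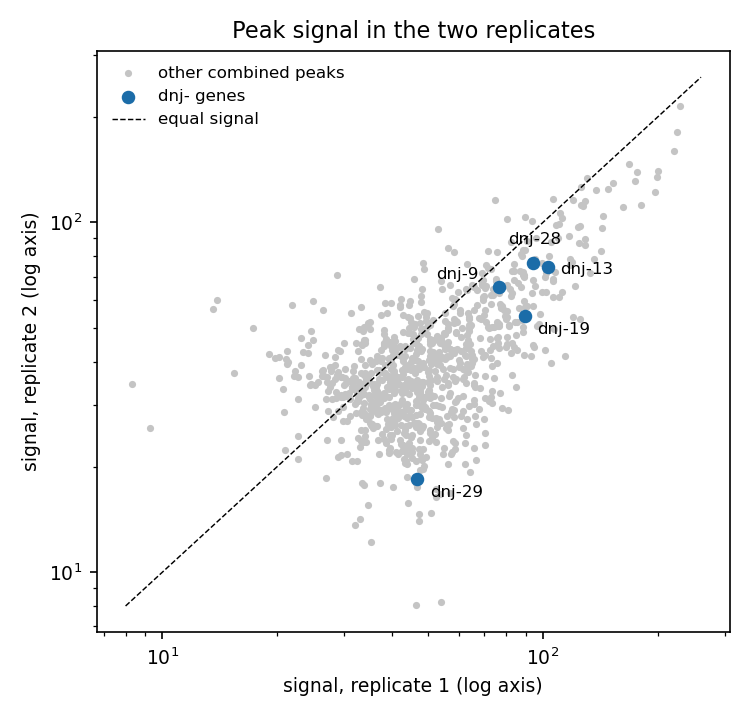
Peak signal in replicate 1 (horizontal, log axis) and replicate 2 (vertical, log axis) for the 913 combined thresholded peaks matched in both replicates, with the 5 dnj- genes in blue and a dashed line of equal signal. All 5 lay below the line, and dnj-29 lay farthest below it, at a log2 ratio of -1.33.

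Of all dnj- genes, 5 of 29 (17.2%) had a summit of the combined thresholded list in the promoter window, where 2.79% of all coding genes did. This contrast is the one that chose the genes and so supports nothing further. In the conservative list 4 of 29 did (13.8%, against 2.66% of coding genes), dnj-29 being the one lost. In the thresholded list of replicate 1 all 5 were present (background 1.72%), and in that of replicate 2 all but dnj-29 (1.34%). None of the other 24 dnj- genes had a promoter summit in any of these 4 lists. The thresholded summit nearest to the 5' end of one of them lay 2042 bp downstream of dnj-12, and the median distance was 30678 bp.

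In the ranked lists, which keep weak peaks, the other dnj- genes had summits about as often as coding genes in general. In the combined ranked list 12 of the 24 (50%) had a summit in the window, against a background of 42.9%. In replicate 1 the count was 10 (41.7%, background 33.2%) and in replicate 2 it was 7 (29.2%, background 34.1%). The median of their highest signals in the combined ranked list was 27.8, against 26.1 over all coding genes with a summit. In replicate 1 it was 14.5 against 17.6, and in replicate 2 14.9 against 15.3. The range over the 12 was 8.16 to 45.1, below the 58.2 of dnj-29. No dnj- gene of the combined ranked list came near the threshold from below. The highest score among the 12 was 365, at dnj-12, and the gene just inside, dnj-29, had 887. Because the threshold also set dnj-29 apart from the 12, lower signals and scores in the 12 follow largely from the selection. The size of the gap is a description and varied between lists. The ranked list behind the conservative list gave dnj-29 a score of 469 and dnj-12 a score of 363. The ranked list of replicate 2 gave dnj-29 a score of 63 and dnj-10 a score of 177.

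**Figure D4:**
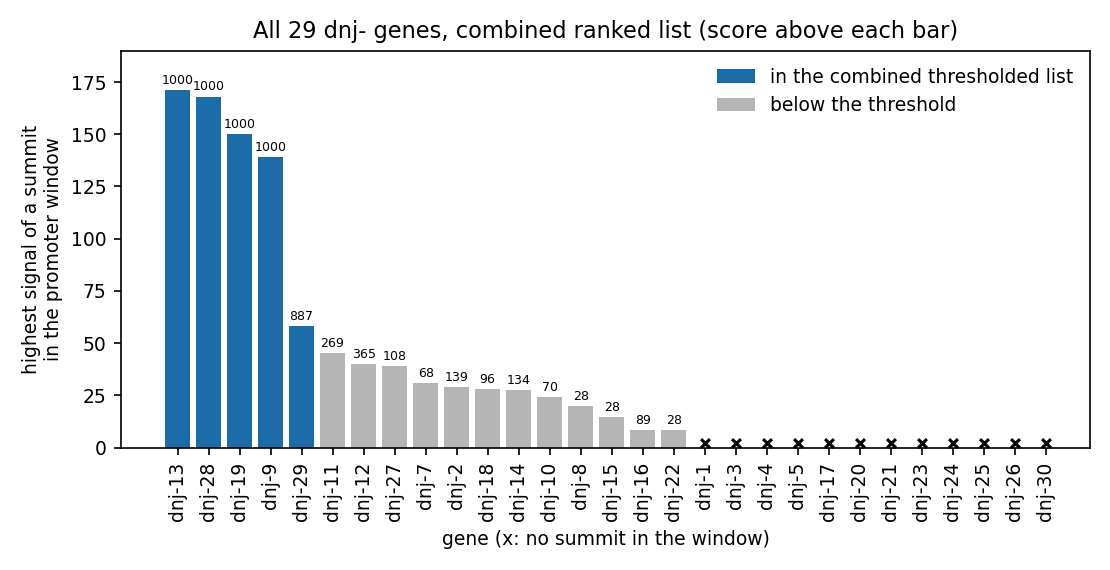
The highest signal of a summit in the promoter window of each of the 29 dnj- genes in the combined ranked list (vertical axis, scale not stated), with its IDR score above the bar; blue bars are the 5 genes of the thresholded list, grey bars lie below the threshold, and crosses mark genes with no summit in the window. The 4 tallest bars, 139 to 171, stand well above dnj-29 at 58.2 and dnj-11 at 45.1.

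Among the dnj- genes with no thresholded peak, dnj-12 encodes a cytosolic class A protein like DNJ-19, and its summit lay 78 bp upstream with a combined signal of 40.0. In replicate 1 dnj-12 had a signal of 25.3, and in replicate 2 it had summits of 21.3 and 18.8, 405 and 49 bp upstream. Its neighbour mtx-1 is arranged head to head, 492 bp away. The highest signal among the 24 was 45.1 at dnj-11, a relative of the ribosome-associated ZRF1 proteins of mammals, with 26.0 in replicate 1 and 17.2 in replicate 2. In replicate 2 the 18.5 of dnj-29 was close to the value of dnj-11 and below those of dnj-12 and of dnj-10, the mitochondrial class A gene, which had 23.5.

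Genes for J proteins of the endoplasmic reticulum also differed in their values. At dnj-27, which encodes a relative of mammalian ERdj5, a summit 492 bp upstream had a combined signal of 38.8 and a score of 108, and neither replicate's ranked list had a summit in the window. Replicate 2 had one just outside it and upstream, with a signal of 22.5. At dnj-7, a relative of mammalian P58IPK, the combined signal was 30.9, with 14.3 in replicate 1 and 14.9 in replicate 2. The combined ranked list had no summit in the window of dnj-20, a relative of mammalian ERdj3. Among all 12 dnj- genes with a combined ranked summit but no thresholded one, wherever their products act, the next values were 28.8 at dnj-2 and 27.9 at dnj-18. The remaining 6 of the 12 had combined signals of 27.6 or less.

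Head-to-head arrangement was common among the 5 genes. Of the 5, 4 had a coding gene facing the other way with its 5' end within 1000 bp, against 9 of the other 24 (37.5%) and 3539 of all 19973 coding genes (17.7%). Among the 558 coding genes with a thresholded promoter summit, 265 (47.5%) were head to head. With 5 genes these counts are a description, and a summit between close divergent 5' ends can fall in both windows. Of the 4 partners, nhr-47, supr-1 and ndua-2 had the same summit in their own windows and F54D5.9 did not. By chromosome, dnj-28 and dnj-29 were among 7 dnj- genes on I, dnj-9 and dnj-13 among 6 on II, and dnj-19 among 4 on V. Of all coding genes on I, II and V, 4.41%, 2.67% and 1.52% had a promoter summit in the combined thresholded list. None of the 5 on III, the 5 on IV or the 2 on X was in the list, where 4.66%, 3.63% and 0.769% of coding genes had a promoter summit.

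Of 12 genes for HSP70 proteins, the partners of J proteins, and their nucleotide exchange factors, 7 had a summit of the combined thresholded list in the window. In the thresholded list of replicate 1 there were 5 (background 1.72%). In that of replicate 2 there were also 5 (background 1.34%), not all of them the same genes. The genes hsp-4, hsp-70, T14G8.3, T24H7.2 and stc-1 had none. The divergent inducible HSP70 genes F44E5.4 and F44E5.5 shared 1 peak with a signal of 214. The exchange factor gene bag-1 had 168, hsp-1, the constitutive cytosolic HSP70, 158, and hsp-110 144. One of the genes for HSP70 of the endoplasmic reticulum, hsp-3, had 97.3, and that for the mitochondrial HSP70, hsp-6, 89.9. The replicates differed at several of these genes. At hsp-1 replicate 1 gave 114 and replicate 2 gave 41.4, hsp-110 was in the thresholded list of replicate 1 only, hsp-3 in that of replicate 2 only, and hsp-6 in neither.

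Of 8 genes of the translocon of the endoplasmic reticulum, with which Sec63 proteins work, 4 had a promoter summit. They were sec-61.G (171), trap-4 (63.2), and sec-61.B and trap-3, which shared a peak with a signal of 157. Thus 3 of these 4 were well above dnj-29 (58.2) in the same list. Those 3 were also in both replicates' thresholded lists, and trap-4 was in neither. Of the 8 genes of the cytosolic chaperonin CCT, 4 had one, namely cct-8 (217), cct-1 (115), cct-5 (88.3) and cct-7 (68.2). These summits lay 434, 278, 461 and 270 bp upstream, beyond the 250 bp of the narrow window. Both replicates' thresholded lists held cct-8 and cct-1, that of replicate 1 alone held cct-5, and neither held cct-7. Of 11 genes for HSP90 proteins and their cochaperones only ahsa-1 had one, with 78.2, and by replicate it was in the thresholded list of replicate 2 only. Of 12 small heat shock protein genes none had one, which allows a share of up to 25%. These lists were drawn up with earlier results of these data known and are given as counts beside the 2.79% of all coding genes.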

How the data were processed

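Chromatin immunoprecipitation peak lists from 2 biological replicates were used, 8 lists in all. Per the labels the assembly was ce11 and chromatin was sheared by sonication, and no source used here names the aligner or the peak caller. The deposited score of each peak follows its deposited −log10 IDR to within 1 unit, with a cap at 1000. The deposited signal of each peak is the authors' own value on an unstated scale, and peaks of equal signal were ordered by the deposited −log10 q. The combined lists were pooled by the authors over both replicates. The ranked lists of both replicates together contain 16 further columns, 8 in each of 2 lists, that name no sample, and these were left out. None of the lists holds read counts, so the depth is unknown. For a count of 0 the limit is 3 counts of the total, which covers counting error only.

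Summits were converted to positions counted from 1 and assigned to Ensembl release 115 genes with Python 3.11.15 and NumPy 2.4.6. The RefSeq 5' ends of the 5 genes differed from these by at most 5 bp. Many worm 5' ends are trans-splice sites, downstream of where transcription begins. The step that assigns summits to genes was tested on simulated data. No test was made across genes, because the genes were chosen by their peaks. The members, the gene lists, the motifs and the alternatives were chosen with earlier results of these data known. Genes named were the 5, their head-to-head partners and other genes at their summits, the 6 other dnj- genes of highest combined ranked signal, and every listed chaperone or translocon gene with a thresholded summit. The values of dnj-10 and dnj-20, the gene T23B7.3 and the letters GGCGC and TGGCGC were added after the values were seen.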

Additional observations from a re-analysis of the deposited data

How the results depend on the processing

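Alternatives were the conservative list, the ranked peaks at a score of 830 or more, each replicate's own thresholded list, narrower and wider promoter windows, 5' ends of any transcript, and 1 gene per summit. Of the 5 dnj- genes, 4 or 5 had a promoter summit under each of these. A count of 5 was fixed in advance with the wider window, the 5' ends of any transcript and the ranked peaks at that score. Those settings keep every summit that chose the 5 genes, so they give the 5 no support. The gene lost was dnj-29 with the conservative list and without replicate 1, and dnj-19 with the narrow window and with 1 gene per summit. The other 24 dnj- genes stayed at 0 throughout. With the narrow window and with 1 gene per summit this was fixed in advance, because these settings can only remove summits from the list that defined the 24. The number of coding genes with a promoter summit, 558, was 335 with the narrow window and ran from 268 to 344 when either replicate was left out, which lowers the background with it. Within the lists of replicates 2 and 1, which are shorter than the combined list and so not compared with it, the peaks ranked in the top 25.1% and 24% at dnj-9, 15.7% and 9.65% at dnj-13, 42.8% and 13.9% at dnj-19, and 14.3% and 12.5% at dnj-28. In the combined list these were 11.8%, 6%, 9.24% and 6.29%. No paired analysis was possible because there was 1 group. The unknown depth and the absence of an analysed control limit how far weak peaks, dnj-29 among them, can be read.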
